A study of Sus scrofa with 19 samples.

Results

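The small leucine-rich proteoglycans are a family of secreted matrix proteins, and 8 of them were followed through the pig hearts studied here: decorin (DCN), biglycan (BGN), asporin (ASPN), fibromodulin (FMOD), lumican (LUM), prolargin (PRELP), osteoglycin (OGN) and podocan (PODN). They were taken from a fixed list of symbols, each symbol occurred once in the deposited gene table, and its Ensembl identifier was found in every count file. They are 8 of the 25879 genes of the count files and 8 of the 13552 genes that were tested, since all 8 passed the filter on low counts. The core protein of these molecules is a row of leucine-rich repeats that lies along collagen fibrils, and most members carry chains of chondroitin, dermatan or keratan sulfate. In the heart they are made mainly by fibroblasts, they set the thickness and spacing of collagen fibrils, and several of them hold transforming growth factor beta in the matrix. Decorin and biglycan carry chondroitin or dermatan sulfate, fibromodulin and lumican are keratan sulfate proteoglycans, and asporin carries no such chain.

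RNA was sequenced from 19 pigs, each with its own library, to compare models of myocardial fibrosis with controls. The study describes all tissue as left ventricular (LV) myocardium. All pigs were labelled as female large whites without a genetic alteration. DOX pigs (n = 5) were given doxorubicin and MYO pigs (n = 5) were given Myocet, a liposomal form of doxorubicin, in 3 cycles of 60 mg/m2 each, and the anterior wall was sampled 3 months after the first injection. RemoLV pigs (n = 3) had a coronary artery occluded for 90 min and then reperfused, and their tissue came from the posterior wall, remote from the infarct, at 6 months. Hyper pigs (n = 3) were juveniles that received a stent of 9 mm in the descending aorta, which became a stenosis of the aortic isthmus as they grew, and their anterior wall was sampled at 6 months. Control pigs (n = 3) were sham-operated according to the labels and untreated according to the methods of the study, and their anterior wall was sampled at 6 months. The DOX and MYO data came from an earlier study, and these pigs were sampled at 3 months and all others at 6 months. The series of libraries, the time of sampling and the drug treatment therefore cannot be told apart in any comparison with the other groups.

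The names of the libraries are in conflict between the deposits. The table of the whole series has 19 sample columns, and for 8 of them the count file with the same data is labelled as a different group. The libraries named Control in the table are those whose count files are labelled RemoLV, the libraries named RemoLV are those labelled Control, and 1 DOX and 1 MYO library change places. Groups are given here by the labels of the count files, and the tests of the 8 genes are also given with the names of the table (table names). The 3 libraries labelled RemoLV also stood apart in their markers of heart chambers: all 6 tested markers of atrial cardiomyocytes were higher and all 6 tested markers of ventricular cardiomyocytes were lower than in Control. MYL2, the ventricular myosin light chain, had 18.6 to 115 CPM in these 3 libraries against 8975 to 18077 CPM in the 16 others, and MYL4, the atrial light chain, had 6029 to 8130 CPM against at most 21.9 CPM. Which of the namings is right was not settled here, and every comparison with Control depends on it. The comparison of DOX and MYO together with Hyper uses libraries that keep their kind of model under both namings. Levels are in CPM, the counts of a gene relative to a library total that was scaled by the TMM method, and library totals were between 9527710 and 20370209 counts. Groups were compared in 1 edgeR quasi-likelihood model of all libraries, p-values were adjusted over all genes tested with the Benjamini-Hochberg method, and a gene was called at an adjusted p of at most 0.05. The p-values set a difference between groups against the spread between pigs within groups, which was estimated over all groups together.

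In the pig genome (Sscrofa11.1, RefSeq annotation) 6 of the 8 genes lie in pairs with another member. DCN (chr5:91678601-91713925, plus strand) and LUM (chr5:91748871-91756381, plus strand) are 34.9 kb apart with no annotated gene between them. FMOD (chr9:64062995-64073853, minus strand) and PRELP (chr9:64190978-64207008, plus strand) are 117.1 kb apart. OGN (chr3:42116521-42135940, minus strand) and ASPN (chr3:42165553-42192902, minus strand) are 29.6 kb apart with osteomodulin (OMD), another member of the family, between them, and all of these lie within the span of CENPP on the plus strand. CENPP had at most 1.76 CPM in any library. BGN lies on the X chromosome (chrX:124282048-124295450, plus strand) and PODN on chromosome 6 (chr6:159155251-159179456, minus strand).

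The sequences just before the annotated start of 4 members are shown, because BGN and FMOD moved together in the libraries and because the neighbours OGN and ASPN moved apart. Each window holds the 250 bases before the first base of the gene, 5′ to 3′ on the strand of the gene, read from Sscrofa11.1 with the gene starts of RefSeq. Capitals mark every match, on either strand, to TATAAA (the core of a TATA box), CCAAT (the CCAAT box), GGGCGG (the GC box bound by SP factors), CAGAC (a short element bound by SMAD proteins) or TGANTCA (the AP-1 site), and none of these matches overlap one another. BGN is from chrX:124281798-124282047, FMOD from chr9:64073854-64074103, OGN from chr3:42135941-42136190 and ASPN from chr3:42192903-42193152.
BGN: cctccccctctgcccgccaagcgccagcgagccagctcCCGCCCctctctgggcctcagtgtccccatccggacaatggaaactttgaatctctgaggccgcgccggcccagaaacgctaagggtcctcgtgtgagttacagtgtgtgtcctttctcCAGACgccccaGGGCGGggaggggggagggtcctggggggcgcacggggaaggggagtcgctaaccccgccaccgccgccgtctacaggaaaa
FMOD: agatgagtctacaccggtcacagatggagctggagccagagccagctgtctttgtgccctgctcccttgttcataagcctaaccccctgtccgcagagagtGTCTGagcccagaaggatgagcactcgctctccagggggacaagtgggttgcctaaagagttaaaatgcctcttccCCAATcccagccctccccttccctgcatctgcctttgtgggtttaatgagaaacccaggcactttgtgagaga
OGN: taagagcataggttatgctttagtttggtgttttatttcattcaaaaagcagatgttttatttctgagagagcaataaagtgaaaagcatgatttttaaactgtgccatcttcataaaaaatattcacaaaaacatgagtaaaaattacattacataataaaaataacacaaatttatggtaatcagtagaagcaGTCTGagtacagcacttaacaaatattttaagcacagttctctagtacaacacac
ASPN: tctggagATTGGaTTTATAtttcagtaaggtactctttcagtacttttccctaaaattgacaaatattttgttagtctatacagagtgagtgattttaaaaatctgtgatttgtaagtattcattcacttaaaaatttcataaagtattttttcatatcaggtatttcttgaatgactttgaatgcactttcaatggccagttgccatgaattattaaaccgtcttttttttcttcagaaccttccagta

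The G and C content was 67.2% for BGN and 54.8% for FMOD, and it was 28.4% for OGN and 29.2% for ASPN, against a median of 57.6% over 19556 windows of protein-coding genes. BGN held 2 GC boxes, 212 and 82 bases before the start, and a CAGAC element at 93 bases. FMOD held a CCAAT box at 73 bases and a CAGAC element at 149 bases. OGN held a CAGAC element at 55 bases, and ASPN held TATAAA at 237 bases beside CCAAT at 243 bases. The LUM window held 1 CAGAC element, 86 bases before the start, and the windows of DCN, PRELP and PODN held none of the 5 motifs. Of all windows, 9.77% held TATAAA, 31.9% CCAAT, 45.9% GGGCGG, 39.0% CAGAC and 5.27% TGANTCA, so that most of these matches are common.

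Among the 8 genes, decorin was the most abundant transcript per length in every group and fibromodulin the least abundant. Per kb of exon, DCN had a median of 305 CPM over all 19 libraries, LUM 67.6, BGN 33.1, ASPN 37.8, PODN 33.0, PRELP 27.2, OGN 17.3 and FMOD 5.30. The order between these ends changed with the group. Per length, ASPN had rank 3 in Control, with 50.1 ± 14.7 CPM per kb (SD, n = 3), and rank 7 in RemoLV, with 18.2 ± 1.24 (SD, n = 3). BGN had rank 5 in Control, with 21.8 ± 7.77 CPM per kb (SD, n = 3), and rank 2 in RemoLV, with 82.6 ± 15.2 (SD, n = 3). The summed level of the 8 genes was 1700 to 1768 CPM in the 3 libraries labelled RemoLV and 750 to 1200 CPM in the 16 others.

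**Figure D1:**
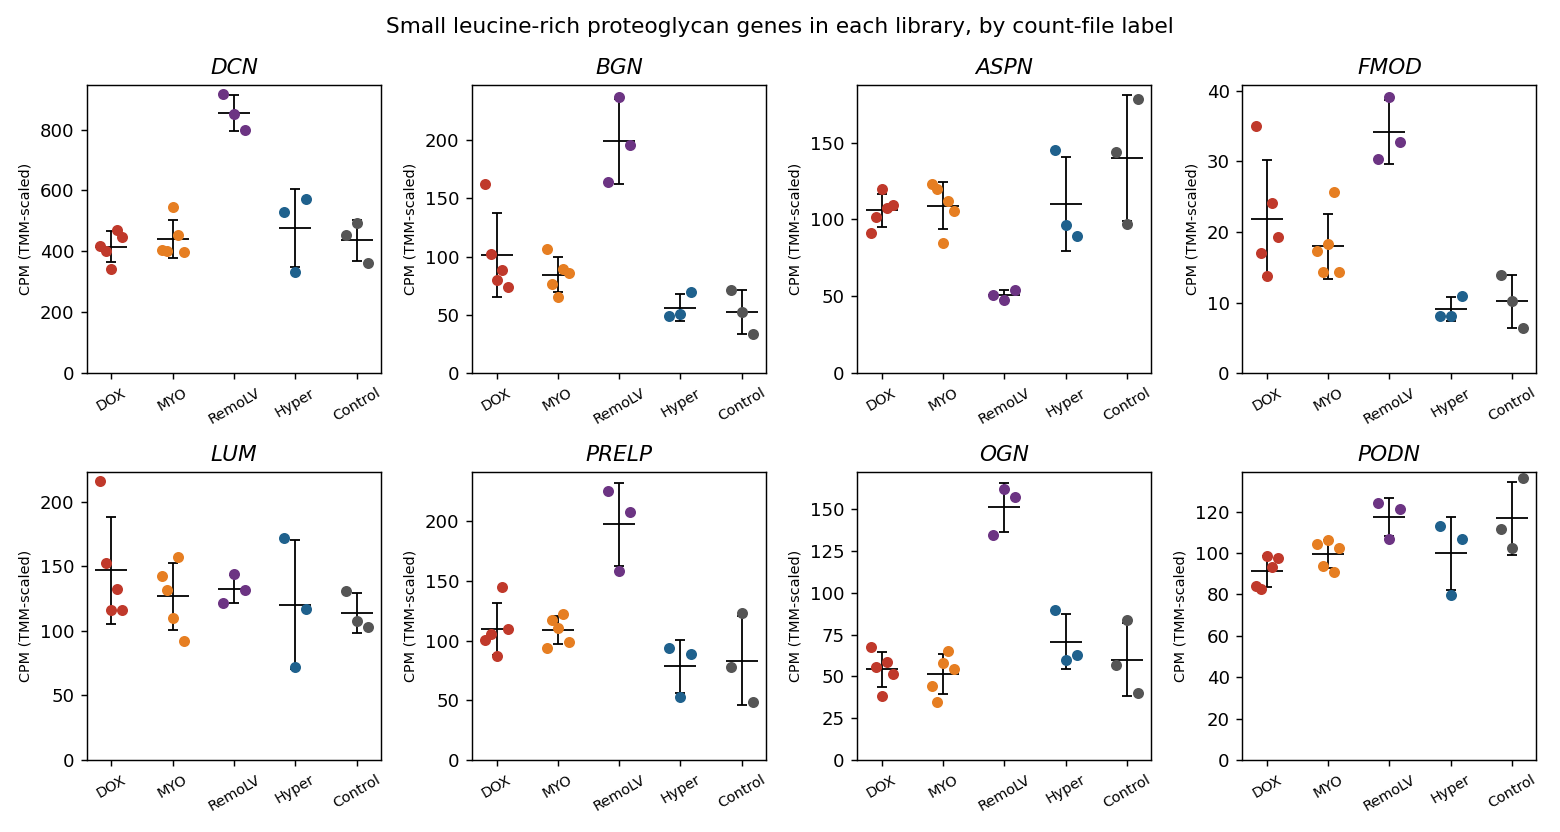
Level of each gene in CPM (TMM-scaled, linear axis from 0) in each of the 19 libraries, grouped by the label of the count file, with the mean as a horizontal line and ± 1 SD as bars (DOX and MYO n = 5, the others n = 3). The 3 libraries labelled RemoLV lie above all others for DCN, BGN, OGN and PRELP and below all others for ASPN. The share of all tested genes that separate in this way from all other libraries was not determined. For LUM the groups overlap. For PODN the libraries labelled RemoLV overlap with Control and Hyper, and those of DOX lie below Control.

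In DOX and MYO together against Hyper, the comparison that does not depend on the naming, BGN and FMOD were higher and the other 6 genes did not pass the test. This is 2 of 8 members higher, where 15.8% of all tested genes were higher, and 0 of 8 lower, where 16.9% of all tested genes were lower. BGN, which binds collagen and transforming growth factor beta and in soluble form acts on Toll-like receptors, had 162, 102, 79.7, 88.7 and 73.8 CPM in the DOX libraries and 106, 76.3, 65.5, 89.2 and 85.9 in the MYO libraries. The Hyper libraries had 48.8, 50.4 and 69.5 CPM of BGN. The lowest MYO library was below the highest Hyper library and all other DOX and MYO libraries were above it. On the log2 scale the difference of BGN was 0.72 (standard error 0.24, adjusted p = 0.0262, edgeR), a ratio of 1.65, and 9 of the 10 libraries were above all Hyper libraries.

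FMOD, which binds collagen and guides its cross-linking by lysyl oxidase, had 35.1, 17.0, 13.8, 24.1 and 19.3 CPM in DOX and 17.3, 14.3, 18.3, 25.6 and 14.4 CPM in MYO. The Hyper libraries had 8.11, 8.05 and 11.0 CPM of FMOD. All 10 DOX and MYO libraries were above all 3 Hyper libraries, as was the case for 9.98% of all tested genes. The log2 fold change of FMOD was 1.13 (standard error 0.27, adjusted p = 0.00385, edgeR), a ratio of 2.19. With table names the values were 0.71 for BGN (adjusted p = 0.0175) and 1.13 for FMOD (adjusted p = 0.00413). FMOD stayed past the threshold when any 1 library was left out, with log2 fold changes between 0.99 and 1.29. BGN did not pass without Hyper replicate 1 (log2 fold change 0.63, adjusted p = 0.136) or without Hyper replicate 2 (0.64, adjusted p = 0.109). DOX replicate 1 had the highest level of both genes, and without it the log2 fold changes were 0.58 for BGN (adjusted p = 0.0281) and 0.99 for FMOD (adjusted p = 0.00327).

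The other 6 genes did not pass in this comparison, and their direction was mixed. PRELP, which links collagen to basement membranes, was at 109 ± 16.5 CPM (SD, n = 10) in the drug-treated pigs and 78.3 ± 22.5 CPM (SD, n = 3) in Hyper (log2 fold change 0.48, adjusted p = 0.104, edgeR). OGN was at 52.8 ± 10.8 CPM (SD, n = 10) against 70.8 ± 16.3 CPM (SD, n = 3), a log2 fold change of -0.42 (adjusted p = 0.111, edgeR). DCN, LUM, ASPN and PODN had log2 fold changes between -0.16 and 0.18, with adjusted p-values from 0.427 to 0.883. PRELP passed when only the groups compared were fitted (log2 fold change 0.48, adjusted p = 0.0444) and with scaling by library totals (0.73, adjusted p = 0.0475). Over all 8 genes the median log2 fold change was 0.07, against 0.03 over all genes tested.

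BGN lies on the X chromosome, and the libraries differed in a Y-linked transcript. DDX3Y was between 96.1 and 177 CPM in all 10 DOX and MYO libraries and at most 0.137 CPM in the 9 others, although all pigs were labelled female. This difference runs along the same groups as the comparison with Hyper and the series of libraries, and its part in the BGN result was not tested.

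Some of the fibroblast markers and most of the fibrillar collagens were higher in the same libraries. Of 15 fibroblast markers that are no members, 7 were higher and none lower in DOX and MYO than in Hyper, where 15.8% of all tested genes were higher, with a median log2 fold change of 0.51, and the summed level of the 15 was 6224 to 9074 CPM in DOX and MYO, 2509 to 4736 in Hyper and 2897 to 4576 in Control. All 15 markers were tested and none was at 0 in a whole group. PDGFRA (log2 fold change 0.48, adjusted p = 0.279) and TCF21 (0.51, adjusted p = 0.327), markers that define cardiac fibroblasts, did not pass. Of 15 fibrillar collagens and genes of their cross-linking, 11 were higher and none lower, with a median log2 fold change of 1.04, from LOX, a lysyl oxidase, at -0.28 (adjusted p = 0.313) to LOXL2, a related enzyme, at 1.64 (adjusted p = 4.33e-05). With table names 7 of the markers and 12 of the collagen genes were higher. COL1A1, COL1A2 and COL3A1 are in both lists, so the lists are not independent. Some markers of cardiomyocytes differed between these groups as well, where 15.8% of all tested genes were higher and 16.9% lower. MYL4 had 2.30 to 21.9 CPM in DOX and MYO and 0.550 to 1.54 in Hyper (log2 fold change 3.19, adjusted p = 9.68e-04, edgeR), and MYL7, another atrial light chain, was higher too (1.17, adjusted p = 0.0425), so that 2 of 6 atrial markers were higher and none lower. The summed level of the 6 was 781 to 2445 CPM in DOX and MYO and 215 to 1278 CPM in Hyper. Of 6 ventricular markers, 1 was higher, the transcription factor IRX4 (1.35, adjusted p = 1.66e-05), and none was lower, with MYL2 at 10959 ± 1332 CPM (SD, n = 10) against 15896 ± 2116 CPM (SD, n = 3, adjusted p = 0.169). Of 7 markers of cardiomyocytes of any chamber, 2 were lower, the troponins TNNT2 (-0.58, adjusted p = 7.03e-04) and TNNC1 (-0.47, adjusted p = 0.00188). In these bulk samples, fewer cells of a type and less RNA per cell cannot be told apart, and the part of the fibroblast and cardiomyocyte markers in the results of BGN and FMOD was not tested.

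Relative to the fibroblast markers, BGN and FMOD overlapped between the groups. The ratio of BGN to the geometric mean of the 15 markers in the same library had a median of 0.803 in DOX and MYO (0.636 to 1.27) and of 0.759 in Hyper (0.640 to 1.02). For FMOD the median ratios were 0.173 (0.133 to 0.275) and 0.120 (0.106 to 0.162). DCN had ratios of 3.28 to 5.30 in DOX and MYO and 6.23 to 6.95 in Hyper, which do not overlap, and stood lower in DOX and MYO. PODN had ratios of 0.660 to 1.09 in DOX and MYO and 1.17 to 1.60 in Hyper, and OGN had 0.348 to 0.573 and 0.686 to 1.21, also without overlap. The geometric mean of the markers had a median of 105 CPM in DOX and MYO (89.7 to 128) and of 76.3 CPM in Hyper (49.6 to 91.6). Of all tested genes, 24.6% had a lower ratio without overlap, against 0.996% with a higher one. These ratios hold within a library and no scaling between libraries changes them, the libraries compared are the same under both namings, and they were not tested.

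**Figure D2:**
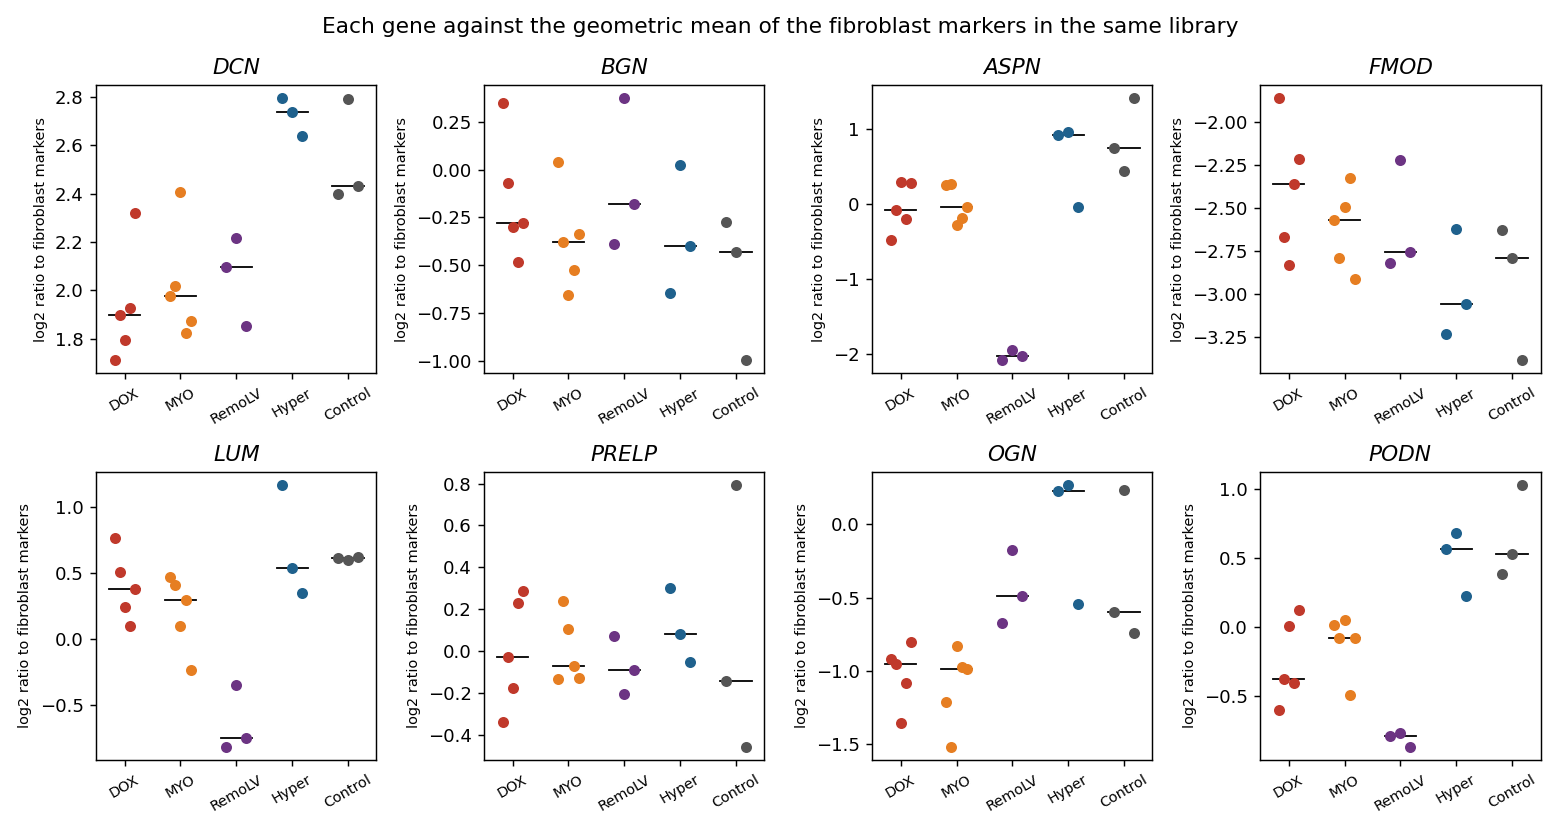
log2 of the ratio of each gene to the geometric mean of 15 fibroblast markers in the same library, one point per library and the median of each group as a line, by the label of the count file. BGN, FMOD and PRELP overlap across all groups, ASPN lies far lower in the 3 libraries labelled RemoLV (ratios 0.236 to 0.260) than in all others (0.714 or more), and DCN lies higher in Hyper and Control than in nearly all DOX and MYO libraries.

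Compared with Control, doxorubicin went along with higher BGN and FMOD and lower PODN. This is 2 of 8 members higher and 1 lower, where 21% of all tested genes were higher and 21.1% lower. Control libraries had 71.0, 52.6 and 33.6 CPM of BGN and 13.9, 10.3 and 6.42 CPM of FMOD. All 5 DOX libraries were above the Control libraries for BGN (17.2% of all tested genes), and for FMOD only DOX replicate 3 was within the range of Control. The log2 fold changes were 0.95 for BGN (standard error 0.26, adjusted p = 0.00716, edgeR) and 1.10 for FMOD (standard error 0.29, adjusted p = 0.00526, edgeR).

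PODN, a member of the family known from smooth muscle and from glomerular podocytes, had 84.0, 82.8, 98.6, 93.5 and 97.6 CPM in DOX and 112, 102 and 137 CPM in Control. The ranges did not overlap, as for 17.3% of all tested genes that were lower. The log2 fold change of PODN was -0.36 (standard error 0.12, adjusted p = 0.0208, edgeR), a value that turned to 0.09 with scaling by library totals, where the median of all genes itself stood at 0.45. ASPN did not pass, with 106 ± 10.6 CPM (SD, n = 5) in DOX against 140 ± 41.0 CPM (SD, n = 3) in Control (log2 fold change -0.40, adjusted p = 0.0753). Without Control replicate 3, where 13% of all genes were higher and 14.4% lower, neither BGN (0.72, adjusted p = 0.0576) nor PODN (-0.23, adjusted p = 0.178) passed. Without Control replicate 2, where these shares were 22.8% and 21.9%, both PRELP (0.79, adjusted p = 0.0118) and ASPN (-0.61, adjusted p = 0.00730) passed as well.

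In MYO, too, BGN and FMOD were higher than in Control and no member was lower, against 20.7% of all tested genes higher and 21.7% lower. The log2 fold changes were 0.69 for BGN (standard error 0.26, adjusted p = 0.0372, edgeR) and 0.82 for FMOD (standard error 0.29, adjusted p = 0.0275, edgeR). All 5 MYO libraries were above Control for FMOD (19% of all tested genes), and MYO replicate 3 was within the range of Control for BGN. Both calls were lost without any 1 of 3 libraries. Without Control replicate 2 the log2 fold changes stayed at 0.69 for BGN (adjusted p = 0.0717) and 0.82 for FMOD (adjusted p = 0.0555). Without MYO replicate 4 they were 0.67 (adjusted p = 0.0614) and 0.66 (adjusted p = 0.0715), and without Control replicate 3 they fell to 0.45 (adjusted p = 0.215) and 0.58 (adjusted p = 0.163). The call of BGN was also lost without MYO replicate 1 (0.60, adjusted p = 0.0793) or MYO replicate 5 (0.69, adjusted p = 0.0557). Without Control replicate 2, where 22.9% of all genes were higher and 22.8% lower, MYO had 3 calls instead: PRELP (0.78, adjusted p = 0.0124) was higher, and ASPN (-0.57, adjusted p = 0.0107) and PODN (-0.32, adjusted p = 0.0477) were lower.

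Some markers of other cells also differed in DOX and MYO against Control. The shares of all tested genes beside the counts below are 21% higher and 21.1% lower in DOX, and 20.7% and 21.7% in MYO. Of the 6 atrial markers, MYL7 (log2 fold change 4.03 in DOX and 3.51 in MYO, adjusted p = 2.26e-05 and 6.21e-05, edgeR) and MYL4 (2.28 and 2.39, adjusted p = 0.00602 and 0.00428) were higher and none was lower, and the sum of the 6 was 1143 to 2445 CPM for DOX, 781 to 1275 CPM for MYO and 125 to 174 CPM for Control. Of the 15 fibroblast markers, 5 were higher and none lower in DOX, and in MYO 6 were higher and 1 lower, PDGFRA (-1.19, adjusted p = 0.00984). The 4 blood markers summed to 62.5 to 130 CPM in DOX, 44.3 to 219 in MYO and 53.7 to 372 in Control. In DOX the red cell genes HBB (-2.33, adjusted p = 0.0347) and ALAS2 (-2.38, adjusted p = 0.0449) were lower and the leukocyte gene PTPRC (1.01, adjusted p = 0.0191) was higher, and in MYO none of the 4 passed. The part of these markers in the results of BGN, FMOD and PODN was not tested.

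DOX and MYO were compared directly because they are forms of the same drug that differ in the liposome around it, given at the same dose and times. None of the 8 genes passed the test between them, and at an unadjusted p under 0.05 there was also none, while 960 of all genes (7.08%) were at that level, 0 passed the adjusted threshold in edgeR (0%) and 2 passed in DESeq2. The p-values of the 8 genes were adjusted together with those of all other genes tested. The log2 fold changes ran from -0.13 for PODN to 0.28 for FMOD, with adjusted p-values between 0.819 and 0.992. The widest interval of ± 2 standard errors, that of FMOD, reached from -0.19 to 0.76, and that of BGN from -0.17 to 0.69, so that differences of this size lie within the intervals. With table names 0 of the 8 genes passed as well, and BGN was the 1 member at an unadjusted p under 0.05 (log2 fold change 0.46, adjusted p = 0.585, edgeR), as were 8.08% of all genes.

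**Figure D3:**
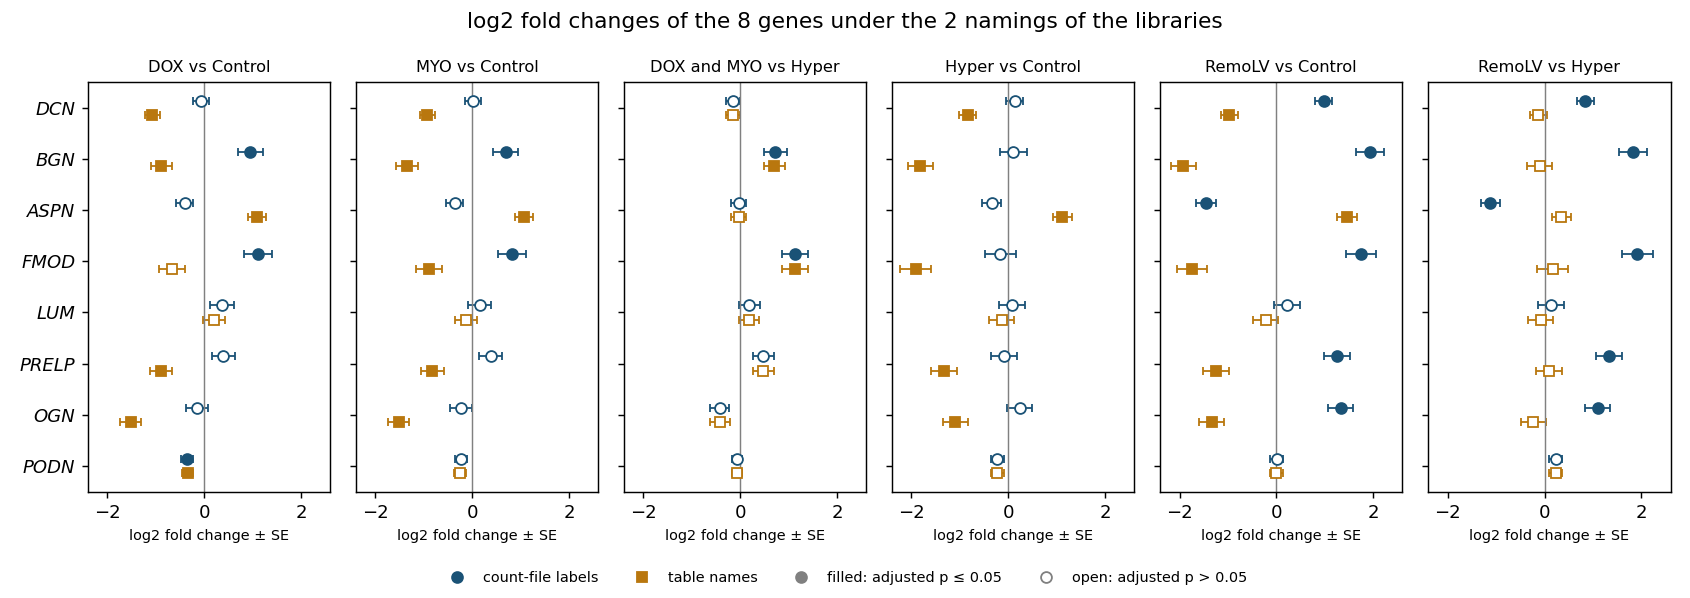
log2 fold change with its standard error for each gene in 6 comparisons, from the fit by count-file labels (circles) and by table names (squares), with filled symbols at an adjusted p of at most 0.05. In DOX and MYO vs. Hyper both namings give the same calls, BGN and FMOD, while in RemoLV vs. Control every gene changes sign between the namings.

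The largest differences of the family were those of the libraries labelled RemoLV. Against Control, 5 of the 8 genes were higher and 1 was lower, where 23.1% of all tested genes were higher and 24% lower, and LUM and PODN did not pass. The median log2 fold change of the 8 genes was 1.11, against 0.02 over all genes tested. With table names the same libraries are compared in the opposite direction, so that 1 gene was higher and 5 were lower, against 24% and 23.2% of all tested genes. These libraries are also the ones with high atrial and low ventricular markers, and the region of the heart and the labelled model cannot be told apart in them.

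Biglycan differed most. BGN had 164, 237 and 195 CPM in the libraries labelled RemoLV, above all other libraries of the series. The share of all tested genes that separate from all other libraries was not determined, here or for the members below. Its log2 fold change against Control was 1.92 (standard error 0.29, adjusted p = 4.28e-05, edgeR), a ratio of 3.79. FMOD had 30.4, 39.2 and 32.8 CPM, above Control and Hyper and above all DOX and MYO libraries except DOX replicate 1. The log2 fold change of FMOD was 1.75 (standard error 0.31, adjusted p = 2.21e-04, edgeR).

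DCN, the archetype of the family, a regulator of fibril growth that also binds growth factor receptors, had 917, 850 and 799 CPM in these libraries. Control had 453, 492 and 361 CPM, DOX 341 to 472, MYO 397 to 546 and Hyper 331 to 571, so that only the libraries labelled RemoLV stood apart. The log2 fold change of DCN was 0.97 (standard error 0.18, adjusted p = 3.14e-04, edgeR). PRELP had 226, 159 and 208 CPM against 77.8, 123 and 48.8 in Control (log2 fold change 1.24, standard error 0.27, adjusted p = 0.00104, edgeR). The lowest of the 3 libraries was above the highest library of every other group for PRELP, which was DOX replicate 4 with 145 CPM.

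OGN and ASPN, which lie next to OMD in a row on chromosome 3, moved in opposite directions. OGN, also called mimecan, had 135, 162 and 157 CPM in the libraries labelled RemoLV and 56.6, 83.7 and 40.0 CPM in Control (log2 fold change 1.33, standard error 0.26, adjusted p = 4.18e-04, edgeR). ASPN, which binds collagen and bone morphogenetic and transforming growth factors, had 50.6, 47.5 and 54.4 CPM in RemoLV and 144, 96.9 and 179 CPM in Control (log2 fold change -1.46, standard error 0.20, adjusted p = 2.22e-05, edgeR). All 16 other libraries had at least 84.4 CPM of ASPN. No single library changed the calls of these 6 genes against Control, and the log2 fold change of ASPN stayed between -1.67 and -1.25 when each was left out. Ranges did not overlap with Control for all 6, in the same direction as for 26.4% of all genes that were higher and 25.7% that were lower.

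The remaining 2 genes overlapped. LUM, a keratan sulfate proteoglycan like FMOD, had 122, 144 and 132 CPM in RemoLV and 131, 108 and 103 CPM in Control (log2 fold change 0.22, adjusted p = 0.521, edgeR). PODN had 124, 107 and 121 CPM against 112, 102 and 137 CPM (log2 fold change 0.01, adjusted p = 0.974, edgeR). With scaling by library totals both passed (0.73 and 0.53), in a scale where the median of all genes was at 0.52. Relative to that median they were at 0.21 and 0.02.

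Against Hyper, the libraries labelled RemoLV showed the same 6 calls, 5 higher (17% of all tested genes) and 1 lower (18.6%). The log2 fold changes were 1.91 for FMOD, 1.82 for BGN, 1.33 for PRELP, 1.10 for OGN, 0.84 for DCN and -1.12 for ASPN, with adjusted p-values between 9.45e-05 and 0.00274 (edgeR). Both comparisons share the 3 libraries labelled RemoLV, so they are not independent. With table names RemoLV and Hyper differed in 0 of the 8 genes and in 0% of all genes, with 0 of the 8 genes and 2465 of all genes (18.2%) at an unadjusted p under 0.05. Without the table-named RemoLV replicate 2, which is the library labelled Control replicate 2, 9.25% of all genes were higher and 9.37% lower, and without the table-named Hyper replicate 3 these shares were 3.27% and 2.42%.

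Hyper did not differ from Control in any of the 8 genes by the count-file labels, and no gene of all 13552 passed the adjusted threshold in edgeR (0%). At an unadjusted p under 0.05 there were 0 of the 8 genes and 2418 of all genes (17.8%), and DESeq2 called 104 genes higher and 207 lower, none of them a member. The log2 fold changes of the members ran from -0.34 for ASPN to 0.23 for OGN. Their ± 2 standard error intervals reached from -0.80 (FMOD) to 0.74 (OGN), so that differences of this size lie within the intervals. This count of 0 depended on single libraries. Without Control replicate 2, 1285 of 13792 genes were higher (9.32%) and 1253 lower (9.08%), and ASPN was the 1 member among them (-0.55, adjusted p = 0.0470). Without Hyper replicate 1, 330 of 13795 genes were higher (2.39%) and 443 lower (3.21%), with no member among them. With table names, where Hyper is compared with the libraries labelled RemoLV, ASPN was higher (18.7% of all tested genes) and BGN, FMOD, PRELP, OGN and DCN were lower (17.2%).

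With table names DOX and MYO are also set against the libraries labelled RemoLV, and the picture of the family turns. In DOX, ASPN was higher (log2 fold change 1.10, adjusted p = 2.71e-04, edgeR) and OGN (-1.52), DCN (-1.07), PRELP (-0.89), BGN (-0.88) and PODN (-0.34) were lower, against 15% and 14.6% of all tested genes. In MYO, ASPN was higher (1.06) and OGN (-1.52), BGN (-1.35), DCN (-0.93), FMOD (-0.89) and PRELP (-0.82) were lower, against 14.8% and 14.4%. PODN in DOX stood near the threshold (adjusted p = 0.0382) and did not pass without the table-named DOX replicate 1, 2 or 4 or Control replicate 1 or 3, with adjusted p-values from 0.0567 to 0.135. In MYO, PRELP did not pass without the table-named Control replicate 1 (-0.71, adjusted p = 0.0638), nor FMOD without Control replicate 2 (-0.78, adjusted p = 0.0820). BGN and FMOD thus had opposite signs in DOX and MYO under the 2 namings of the controls.

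**Figure D4:**
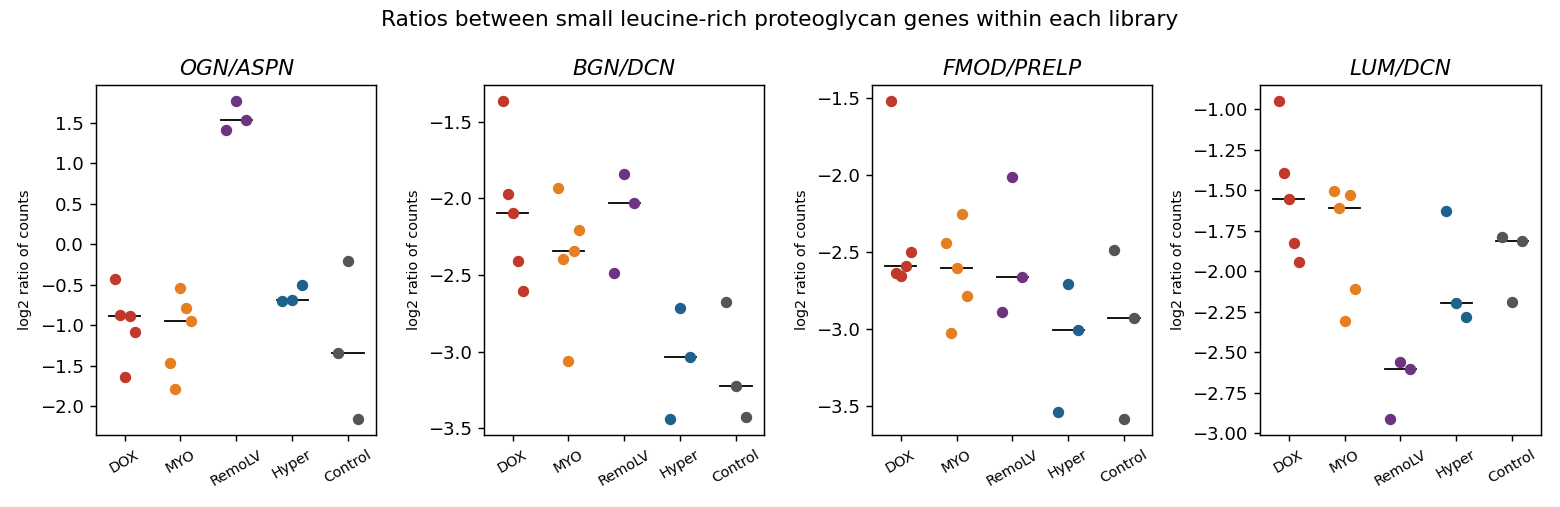
log2 of the ratio of counts between 2 members in the same library, one point per library and the median of each group as a line, by the label of the count file. OGN/ASPN is above 0 only in the 3 libraries labelled RemoLV, and BGN/DCN is higher in most DOX, MYO and RemoLV libraries than in Hyper and Control.

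Ratios between members show the shift in the makeup of the family without any scaling between libraries. The counts of OGN were 2.66 to 3.41 times those of ASPN in the libraries labelled RemoLV, and 0.224 to 0.864 times in the 16 others. The ratio of BGN to DCN had a median of 0.206 in DOX and MYO (0.120 to 0.388), 0.122 in Hyper (0.0921 to 0.152), 0.107 in Control (0.0929 to 0.157) and 0.245 in RemoLV (0.179 to 0.279). Apart from MYO replicate 3, every DOX and MYO library was above all Hyper and Control libraries in this ratio. LUM/DCN was lowest in the libraries labelled RemoLV, at 0.133 to 0.169 against 0.202 or more in all others. DCN made up 35.6% to 51.9% of the summed counts of the 8 genes in any library, and ASPN 2.72% to 3.20% in RemoLV against 7.68% to 19.7% elsewhere.

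In the libraries labelled RemoLV most of the fibroblast markers were higher as well, 13 of 15 against Control with none lower. Of all tested genes, 23.1% were higher and 24% lower. The median log2 fold change of the 15 markers was 1.38. PDGFRA (log2 fold change 0.56, adjusted p = 0.237) and TCF21 (-0.56, adjusted p = 0.334) were the 2 that did not pass, and TCF21 averaged 11.6 CPM (SD 2.92) over the 3 RemoLV libraries against 17.3 CPM (SD 6.72) over the 3 Control libraries. Their summed level was 13212 to 15351 CPM against 2897 to 4576 CPM in Control. Set against the geometric mean of these markers, BGN (0.764 to 1.30 in RemoLV and 0.501 to 0.827 in Control), FMOD (0.142 to 0.214 and 0.0958 to 0.162) and PRELP (0.868 to 1.05 and 0.729 to 1.73) overlapped with Control, as did OGN (0.627 to 0.886 and 0.597 to 1.18). The ratios of ASPN (0.236 to 0.260 and 1.36 to 2.67), LUM (0.568 to 0.787 and 1.52 to 1.54), PODN (0.548 to 0.585 and 1.30 to 2.04) and DCN (3.61 to 4.65 and 5.28 to 6.93) were lower without overlap. This was the case for 76.7% of all tested genes, against 2.66% with a higher ratio, and the markers in the denominator had a geometric mean of 206 CPM in RemoLV and 74.6 CPM in Control. Of these 4 members ASPN alone had a lower level in CPM.

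Across the 19 libraries the members did not vary as 1 group. Of the 28 pairs, 10 had a negative Pearson r of log2 CPM, and the values ran from -0.81 for DCN with ASPN to 0.92 for BGN with FMOD. Without the 3 libraries labelled RemoLV, DCN with ASPN was at -0.29 and BGN with FMOD at 0.88. Within the 10 DOX and MYO libraries DCN with ASPN was at -0.62, BGN with FMOD at 0.64 and BGN with LUM at 0.81. These correlations describe libraries that share groups, series and depth, and they carry no test.

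The genes most like each member over the 19 libraries, by the same r, were taken from the 3 highest. For FMOD they included COL1A1 (0.93) and FKBP10 (0.93), which were at 0.91 each without the libraries labelled RemoLV. COL1A1 encodes a chain of type I collagen and FKBP10 a prolyl isomerase that acts on procollagen. For BGN they were EFS (0.94), the elastin gene ELN (0.93) and OLFML2B (0.92), and without those libraries 0.86, 0.88 and 0.89. For PRELP they were TGFBI (0.93), MPZL1 (0.92) and the matrilin gene MATN4 (0.92), and for DCN LTBP1 (0.93), which encodes a binding protein of latent transforming growth factor beta, FAIM2 (0.91) and MGP (0.91). Those of DCN fell to 0.71, 0.79 and 0.68 without the libraries labelled RemoLV.

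For OGN the 3 genes were RIMKLB (0.93), LRRC9 (0.93) and TCEAL8 (0.92). For ASPN they were MCCC2 (0.94), BCL2L13 (0.94) and ANKRD33B (0.94). LUM and PODN had weaker partners, with OTUD1 (0.73) and FAM53C (0.72) for LUM and TTC17 (0.82), PPP3R1 (0.81) and GPR63 (0.81) for PODN.

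Of 8 other members of the family that were tested, 2 were higher and 2 lower in DOX and MYO than in Hyper, against 15.8% and 16.9% of all tested genes. NYX (log2 fold change 1.24, adjusted p = 0.0271, edgeR) and TSKU (1.11, adjusted p = 0.00733) were higher, and OMD (-0.67, adjusted p = 0.00170) and ECM2 (-0.52, adjusted p = 0.0287) were lower. OMD and ECM2 flank ASPN on chromosome 3. In the libraries labelled RemoLV, 4 of the 8 were higher than in Control and none lower, against 23.1% and 24%, from NYX at -0.11 (adjusted p = 0.886) to PODNL1, the nearest relative of PODN, at 2.90 (adjusted p = 2.30e-04). EPYC (epiphycan) had at most 1 count in any library and was not tested.

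Enzymes that build the sugar chains of these molecules were tested as well. Of 21 tested genes for chondroitin and dermatan sulfate, 6 were higher and none lower in DOX and MYO than in Hyper, against 15.8% and 16.9% of all tested genes, from CHSY3 at -0.58 (adjusted p = 0.203) to XYLT1, a xylosyltransferase that starts the chain, at 1.01 (adjusted p = 0.0483, edgeR). Of the same genes, 12 were higher and 2 lower in the libraries labelled RemoLV than in Control, against 23.1% and 24% of all tested genes, with XYLT1 at 3.08 (adjusted p = 2.22e-05) and CHSY3, a chondroitin synthase, at -1.24 (adjusted p = 0.0276). Of 5 tested genes for keratan sulfate, 2 were higher and none lower in DOX and MYO than in Hyper, with the sulfotransferase CHST1 at 0.84 (adjusted p = 0.0375).

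Ligands and receptors bound by the family, and proteases that cleave it, were mixed. The list of proteases also holds PCOLCE and PCOLCE2, which enhance a protease and are not proteases themselves. The shares of all tested genes beside these counts are again 15.8% higher and 16.9% lower in DOX and MYO against Hyper, and 23.1% and 24% in RemoLV against Control. Of 20 tested ligands and receptors, 7 were higher and 3 lower in DOX and MYO than in Hyper, from the receptor kinase ERBB4 at -1.37 (adjusted p = 0.00961, edgeR) to the growth factor CCN2 at 2.13 (adjusted p = 0.0322). Of 10 tested proteases, 4 were higher and 1 lower, and the lower one was ADAMTS5, an aggrecanase, at -1.03 (adjusted p = 2.48e-04). In the libraries labelled RemoLV against Control, 3 of the ligands and receptors were higher and 2 lower, and 4 of the proteases were higher, with the gelatinase MMP2 at 1.85 (adjusted p = 4.66e-07), and 1 was lower. Of 16 larger proteoglycans, 9 were higher and none lower in DOX and MYO than in Hyper. With table names the counts of higher and lower genes in each of these lists changed places in RemoLV against Control.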

How the data were processed

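RNA-seq libraries from 19 pigs, all described as LV myocardium by the study, were compared, 1 library per pig. The authors mapped the read pairs with STAR (Sscrofa11.1) and used HTSeq 0.11.1 with the reverse strand setting for gene counts, and the deposited count files hold these raw whole numbers. A table of 14744 genes by the authors has log2-like transformed expression, used here for gene symbols and to match its columns to the count files, beside log2 fold changes and adjusted p-value columns of the authors' DESeq2 comparisons, which were not used. Every sample column ranked the genes exactly as 1 count file did (rho 1.0), and its rho with any other count file was at most 0.992.

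Counts were scaled with TMM and genes kept by filterByExpr in edgeR 4.0.16 (R 4.3.3). The quasi-likelihood test of edgeR was used, in 1 unblocked model with 5 groups, and p-values of 13552 genes were adjusted after Benjamini and Hochberg. Standard errors came from these fits. Alternatives were DESeq2 1.42.0, other scalings, no filter, at least 10 counts in every library, a replicate block, only the groups compared, the table names, leaving out the libraries labelled RemoLV and leaving out each library, the last also with the table names (chosen after seeing the data). Correlations were taken over log2 CPM (prior count 2), and symbols that are placeholders were passed over when the 3 most similar genes were named, of which some are not reported here. All 8 members were named in every comparison, and from a list the genes with the lowest and the highest log2 fold change, other genes having been named after their values were seen. The members and lists were chosen with earlier results of these data known. On simulated data of 13326 genes, DOX against Control recovered 73% of changed genes at a log2 fold change of 1 and 90.8% at 2, with 7 false calls. For RemoLV against Control (13334 genes) these shares were 48% and 87%, with 11 false calls. Only 98 or 100 changed genes were tested at each size of change, far fewer than were called in the data. These shares therefore do not give the sensitivity of the tests above. Library totals had a median of 14527230 counts. Promoter windows were read from the RefSeq annotation of Sscrofa11.1, in which all 8 symbols were found. Tables were made with Python 3.11.15 and pandas 2.3.3.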

Additional observations from a re-analysis of the deposited data

How the results depend on the processing

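The calls of BGN and FMOD in DOX and MYO against Hyper held under every other scaling, filter, tool, model and naming tried, with log2 fold changes of 0.71 to 0.97 and 1.03 to 1.38, and that of FMOD also without any 1 library, while that of BGN depended on Hyper replicates 1 and 2. The replicate numbers did not pair the libraries, since 32 pairs with the same number had correlations of their deviations from -0.246 to 0.242 and only 4 were above 0.1. With the replicate block no count of called members changed, while DCN in MYO against Control turned to -0.021 and PRELP in DOX against MYO to -0.0073. With library totals alone the median of all genes against Control moved to 0.45 for DOX, 0.44 for MYO, 0.52 for RemoLV and 0.17 for Hyper, and that of DOX and MYO against Hyper to 0.29, and these values turned positive: in DOX against Control DCN 0.34, OGN 0.21, ASPN 0.071 and PODN 0.086, in MYO against Control OGN 0.15, ASPN 0.11 and PODN 0.21, in Hyper against Control PRELP 0.013, and in DOX and MYO against Hyper DCN 0.093, ASPN 0.23 and PODN 0.19. On that scale 41.5% of all genes were higher and 5.2% lower in DOX against Control, and LUM (0.79, adjusted p = 0.0154) and PRELP (0.75, adjusted p = 0.0464) passed while PODN did not, so that 4 members were higher and 0 lower. PODN also passed in RemoLV against Hyper (0.57, adjusted p = 0.00623), where 30.4% of all genes were higher and 7.1% lower. Values near 0 also turned, DCN in MYO against Control to -0.0076 with DESeq2 size factors and with DESeq2 and to -0.00050 with only the groups compared, and PODN in RemoLV against Control to -0.0073 with DESeq2 size factors and with DESeq2 and to -0.012 without a filter. With table names 6 members were called against Control for each of DOX, MYO and Hyper and 0 in RemoLV against Hyper. The log2 fold changes that turned with table names were, in DOX against Control, FMOD -0.67, BGN -0.88, PRELP -0.89 and ASPN 1.10. In MYO against Control they were DCN -0.93, FMOD -0.89, LUM -0.12, BGN -1.35, PRELP -0.82 and ASPN 1.06. In RemoLV against Control they were DCN -0.97, FMOD -1.75, LUM -0.22, BGN -1.92, OGN -1.33, PRELP -1.24, ASPN 1.46 and PODN -0.0061. In Hyper against Control they were DCN -0.84, LUM -0.14, BGN -1.82, OGN -1.10 and ASPN 1.12, in DOX against MYO PRELP -0.069 and ASPN 0.033, and in RemoLV against Hyper DCN -0.13, LUM -0.079, BGN -0.10, OGN -0.23 and ASPN 0.34. In the comparisons with Control or RemoLV the libraries of these groups are exchanged, and in DOX against MYO 1 library of each. With 1 library left out, 27.4% to 44.7% of all genes were called in DOX, 28.1% to 45.8% in MYO and 0% to 18.4% in Hyper against Control, and 18.3% to 33.2% in DOX and MYO against Hyper. The members called numbered 1 to 5 in DOX, 0 to 3 in MYO and 0 to 1 in Hyper against Control, 1 to 2 in DOX and MYO against Hyper under both namings, and 0 to 1 in RemoLV against Hyper with table names. Values that changed sign then ranged, in DOX against Control, from -0.18 to 0.028 for DCN and -0.37 to 0.17 for OGN, and in MYO against Control from -0.10 to 0.11 for DCN and -0.45 to 0.085 for OGN. In Hyper against Control they ranged from -0.13 to 0.38 for BGN, -0.017 to 0.34 for DCN, -0.41 to 0.11 for FMOD, -0.27 to 0.34 for LUM and -0.36 to 0.31 for PRELP. In DOX against MYO they ranged from -0.12 to 0.0077 for ASPN, -0.13 to 0.0042 for DCN, -0.034 to 0.18 for OGN and -0.11 to 0.085 for PRELP. In DOX and MYO against Hyper they ranged from -0.17 to 0.21 for ASPN, -0.081 to 0.53 for LUM and -0.21 to 0.032 for PODN, in RemoLV against Hyper from -0.13 to 0.48 for LUM, and in RemoLV against Control from -0.088 to 0.13 for PODN. None of these sign changes touched a called value except those with table names and PODN with library totals, and the cause was not tested. Groups of 3 pigs limit what these tests can detect.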

Other observations

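Markers of other cells than fibroblasts and cardiomyocytes were in part higher and in part lower in the same libraries, where 15.8% of all tested genes were higher and 16.9% lower in DOX and MYO than in Hyper. Of 8 macrophage markers, 4 were higher and 1 was lower in DOX and MYO than in Hyper (edgeR), from the scavenger receptor CD163 at -0.68 (adjusted p = 0.0375) to the complement gene C1QA at 0.93 (adjusted p = 0.00903), and with table names 5 were higher and 1 lower. Of 8 markers of smooth muscle and pericytes, 2 were higher and 1 lower, from RGS5 at -0.37 (adjusted p = 0.00229) to calponin (CNN1) at 1.25 (adjusted p = 0.0447). Of 7 endothelial markers, 3 were higher and 1 lower, from the receptor TEK at -0.35 (adjusted p = 0.0129) to the receptor KDR at 1.05 (adjusted p = 0.00688). In the libraries labelled RemoLV against Control, where these shares were 23.1% and 24%, 4 macrophage markers were higher and 2 lower, 2 of the smooth muscle and pericyte markers were higher and 2 lower, and 2 endothelial markers were lower with none higher.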
